A study of Mus musculus with 3 samples.

Results

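The genes described here mark lymphocytes and leukocytes in mouse kidney: chains of the T cell receptor and its co-receptors, T cell surface receptors, signalling proteins and transcription factors, cytotoxic and natural killer (NK) cell genes, B cell genes, immunoglobulin and plasma cell genes, and genes shared by most leukocytes. They are 41 genes chosen by name, and 39 of them had at least 1 probe set (a group of probes on the array that together read 1 transcript) with that single gene symbol. Lck and Tcf7 had none in the annotation used and are not analysed here. The 39 genes had 72 probe sets, of 45037 on the array and 18193 genes with a single symbol. The study measured total kidney RNA of 3 C57BL/6 mice on single-colour Affymetrix arrays, 1 array per mouse. A single mouse was the control, and 2 mice drank water with 200 mM acetate, a short-chain fatty acid labelled C2, over a period of 6 weeks that began at the age of 3 weeks. The question is how feeding acetate alters gene expression in the kidney. The mice were conventionally housed and no other allele or agent is labelled. A starting age of 3 weeks is listed for the control too. Its number of weeks in the study, its cage and its litter are not given beyond the shared outline of the study.

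Lymphocytes are a small part of a kidney that is not inflamed. T cells recognise antigen through a receptor whose chains signal through the CD3 complex, with CD4 or CD8 as co-receptor. Cytotoxic T cells and NK cells kill through perforin and granzymes. B cells carry immunoglobulin as their antigen receptor, and plasma cells secrete it. IgM and dimeric IgA are held together by the joining chain, and IgA is the antibody carried across mucosal epithelia.

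Values are deposited log2 values, so a difference of 1 is a 2-fold change. They are given for the control, acetate-fed mouse 1 and acetate-fed mouse 2 in that order, and differences are acetate minus control. There is a single control array and so no spread among controls, and an SD is that of the 2 acetate-fed mice, for which the labels say only that they are different mice. No detection calls were used. A probe set was read against a background reference instead, the 95th percentile of 86 probe sets for olfactory, vomeronasal and taste receptors on the same array, which lay at 4.94, 4.99 and 4.99. Its own highest values were 5.74, 5.82 and 5.86. The array medians were 4.91, 4.94 and 4.93. Of 10 kidney identity genes, 9 had a probe set, and all 9, among them uromodulin (Umod) and the proximal tubule receptor megalin (Lrp2), were above the reference on all 3 arrays. Beyond the reference and rankings by brightness, levels of different probe sets are not compared with each other. Each binds its target with its own strength, so a summed linear level is weighted towards the brighter probe sets.

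Most of the lymphocyte genes proper were near or below background, and the 4 genes shared by all leukocytes had the largest differences averaged over both mice, read by the brightest probe set of each gene. Of the 39 genes, each read by its probe set with the highest mean, 16 were above the reference on all 3 arrays, where 64.1% of all genes with 1 symbol were, and 21 were above it on none, where 33.7% were. T, cytotoxic and B cell genes made up 30 of the 39, of which 8 were above the reference on all 3 arrays and 20 on none. The 4 pan-leukocyte genes and 4 of the 5 immunoglobulin and plasma cell genes were above it on all 3 arrays. In direction, 16 of the 39 genes were higher than the control in both acetate-fed mice, where 22.5% of all genes were, and 1 was lower in both, where 27.3% were. Another 6 genes differed in opposite directions and 6 had exactly the same value on all 3 arrays (25.1% of all genes). Mouse 1 stood above mouse 2 at 25 of the 39 genes and below it at 2, against 28.3% and 33.4% of all genes, a comparison in which the control array has no part. For the 39 genes the differences had a median of 0.12 (mouse 1) and 0.00 (mouse 2), and for all genes of 0.00 in both mice. Of the 23 genes bright enough for limma's test, described next, 9 were higher in both mice (26.0% of tested genes) and 1 lower (30.9%). Among them, 5 were at least 1.5-fold higher in both (1.75% of tested genes), the 4 pan-leukocyte genes and Ighm, and 1, Ptprc, at least 2-fold (0.408%), a count that became 0 after either of 2 renormalizations.

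**Figure D1:**
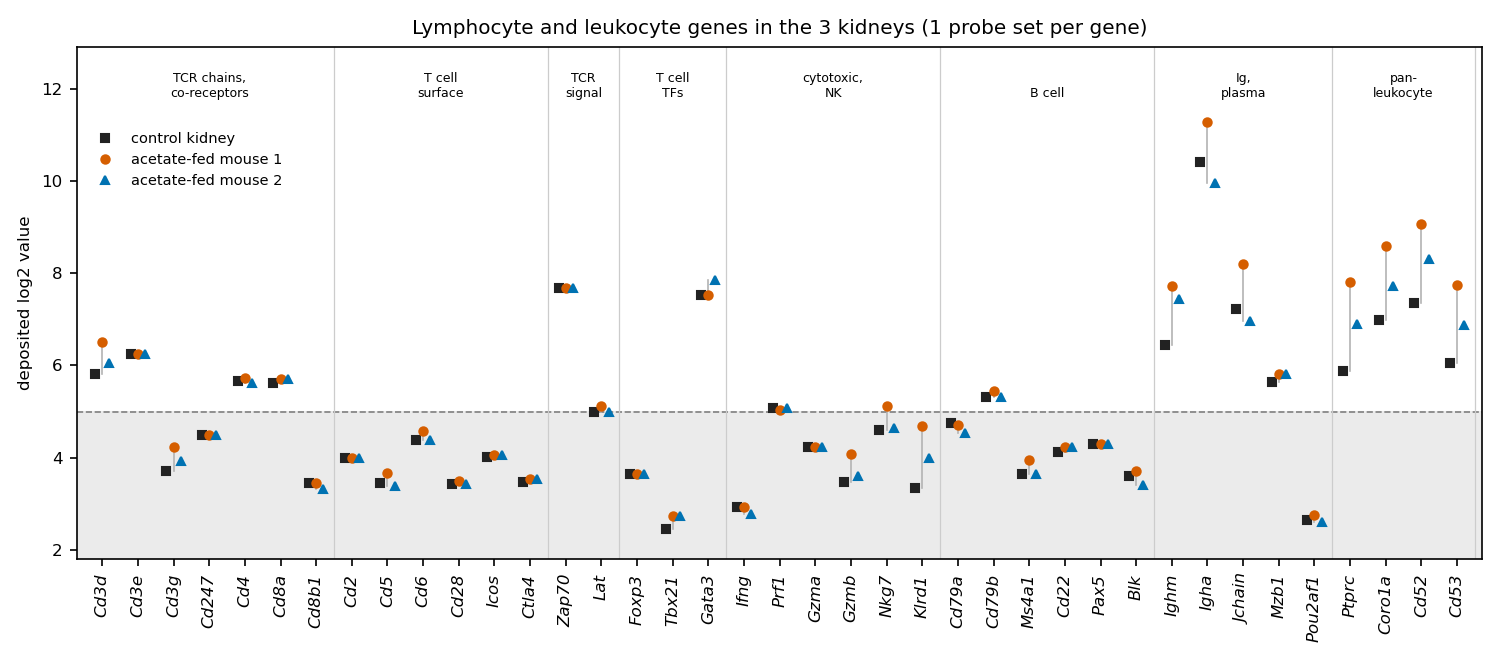
Deposited log2 value of each of the 39 genes on the 3 arrays, 1 probe set per gene, ordered by role; squares are the control kidney, circles acetate-fed mouse 1 and triangles acetate-fed mouse 2, and the shaded area lies under the background reference of about 4.99. The 4 pan-leukocyte genes stand apart in both acetate-fed mice, Igha and Jchain split the 2 mice, and 21 genes lie in the shaded area on all 3 arrays.

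The deposited values repeat, which bears on every test. Exactly the same value on both acetate-fed arrays was found for 26 of the 72 probe sets (36.1%; 44.9% of all probe sets), and on all 3 arrays for 14 (19.4%; 30.0% of all). In the control, mouse 1 and mouse 2, 53.8%, 58.6% and 59.5% of all probe sets shared their exact value with at least 10 other probe sets. So did 13, 7 and 13 of the 24 probe sets here that were above the reference on all 3 arrays. limma's test covered the brighter 60% of probe sets, ranked by their mean over the 3 arrays, which kept 35 of the 72 probe sets and 23 of the 39 genes. It takes most of its spread from the acetate-fed pair, with 1 degree of freedom against 0.36 from the prior, so a pair without any spread passes at a very small difference. limma called 5 of the 35 probe sets, 3 higher (5.18% of all tested probe sets were called higher) and 2 lower (5.35%), and all 5 had exactly tied acetate-fed values. Neither quantile normalization nor median centring of the arrays, both of which undo exact ties, left any call. Of the 35, 0 passed, with 3 and 7 at an unadjusted p under 0.05. The loss was array-wide, since 0 of all 27022 probe sets passed either way, with 15.9% and 18.4% at an unadjusted p under 0.05. With tied pairs left out of the fit, 8 of 25 probe sets passed as higher and 0 as lower, where 6.55% and 4.97% of all probe sets did. That fit took most of its spread from all probe sets together, the pair giving 1 degree of freedom and the prior 26.5. The 8 passes are those of Ptprc, Cd52, Cd53, Coro1a (2 probe sets) and Ighm (3 probe sets), and below both fits are given for them.

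All 4 pan-leukocyte genes stood above the control in each acetate-fed kidney, and further above it in mouse 1. Their differences had a median of 1.69 (mouse 1) and 0.88 (mouse 2). All 4 were at least 2-fold higher in mouse 1, where 1.37% of all genes were, and 1 of them, Ptprc, in mouse 2, where 0.445% were. In a whole kidney, more cells of a type and more RNA per cell cannot be told apart.

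Ptprc encodes CD45, the phosphatase on the surface of all nucleated blood cells, which sets the threshold of antigen receptor signalling. It measured 5.89, 7.80 and 6.89. Both acetate-fed values lay above the control, by 3.76-fold and 2.01-fold, and the 2 mice were themselves 0.91 apart. The acetate-fed mean was 7.35 ± 0.64 (SD, n = 2), a difference of 1.46 with a standard error of 0.67 (limma adjusted p = 0.599, and 1.37e-05 with tied pairs left out). A second Ptprc probe set was under the reference, at 2.94 on all 3 arrays. Cd52, a small glycosylated surface peptide of lymphocytes, monocytes and other leukocytes, was 7.36, 9.05 and 8.30. That is 3.24-fold and 1.92-fold above the control (limma adjusted p = 0.569, and 7.91e-06 with tied pairs left out).

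Cd53, a tetraspanin membrane protein of leukocytes, was 6.06, 7.74 and 6.88, or 3.22-fold and 1.77-fold above the control (limma adjusted p = 0.637, and 7.43e-05 with tied pairs left out). A second probe set lay at 2.49 on all 3 arrays. Coro1a, an actin-binding coronin of haematopoietic cells, was 6.99, 8.59 and 7.72 by 1 probe set and 5.98, 7.48 and 6.70 by another. Both probe sets put mouse 1 highest and the control lowest, with 3.05-fold and 1.66-fold differences by the first and 2.83-fold and 1.65-fold by the second (limma adjusted p = 0.671 and 0.646, and 1.38e-04 and 2.18e-04 with tied pairs left out). One more was under the reference, at 3.15 on all 3 arrays. The order control, mouse 2, mouse 1 was thus shared by all 4 genes.

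The promoters of these genes are shown because the 4 genes differed together while most T and B cell genes lay near background. RefSeq windows (build GRCm38.p6) reach from 250 bases before to 50 bases after the start site and were at hand for 27 of the 41 genes. Cd52 had none. They were searched on both strands for AGGAAGT, which holds the GGAA core that ETS transcription factors bind, the family of PU.1 and of Ets1. Capitals mark AGGAAGT or its reverse complement ACTTCCT, and each sequence is written 5′ to 3′ along its gene.
Ptprc, 1 of 2 windows, chr1:138175256-138175555, minus strand: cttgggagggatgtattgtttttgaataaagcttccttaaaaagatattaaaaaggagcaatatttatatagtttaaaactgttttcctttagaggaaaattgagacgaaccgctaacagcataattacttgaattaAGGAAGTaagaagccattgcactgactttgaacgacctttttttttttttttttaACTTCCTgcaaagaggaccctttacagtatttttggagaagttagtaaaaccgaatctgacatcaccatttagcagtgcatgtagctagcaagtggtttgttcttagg
Cd53, chr3:106790100-106790399, minus strand: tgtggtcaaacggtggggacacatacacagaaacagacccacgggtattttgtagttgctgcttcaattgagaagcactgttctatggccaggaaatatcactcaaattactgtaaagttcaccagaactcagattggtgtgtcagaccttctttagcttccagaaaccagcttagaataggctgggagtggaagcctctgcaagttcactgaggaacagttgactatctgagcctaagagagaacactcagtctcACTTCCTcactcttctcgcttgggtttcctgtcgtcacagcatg
Coro1a, 1 of 2 windows, chr7:126704767-126705066, minus strand: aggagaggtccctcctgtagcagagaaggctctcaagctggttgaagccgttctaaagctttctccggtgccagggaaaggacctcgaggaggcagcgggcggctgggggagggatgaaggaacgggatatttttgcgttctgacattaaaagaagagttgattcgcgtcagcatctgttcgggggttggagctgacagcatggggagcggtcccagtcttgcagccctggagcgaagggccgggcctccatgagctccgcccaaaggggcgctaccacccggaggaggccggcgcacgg
The Ptprc window holds 2 matches, beginning 113 and 58 bases before the start site, the Cd53 window holds 1, 6 bases after it, and the Coro1a window none. AGGAAGT was in at least 1 window of 10 of the 27 genes (37.0%) and of 10.7% of all 27025 genes with a window. The 10 were Cd247, Cd3d, Cd3e, Cd5, Cd53, Cd79a, Lck, Prf1, Ptprc and Tbx21, so T and B cell genes held the letters too. The shorter GAGGAA, which can overlap it, was in 14 of 27 (51.9%, against 31.3% of all genes), GAGGAAGT in 2 (7.41% against 3.69%) and GGGAAGT in 1 (3.70% against 6.56%). The octamer ATGCAAAT of B cell promoters and the sequence CATTTCCT were in none of the 27 (1.97% and 3.17% of all genes). A match is a run of letters in this window and shows no binding.

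Markers of macrophages and monocytes moved with the pan-leukocyte genes. All 16 had a probe set above the reference on all 3 arrays, 15 were higher in both acetate-fed mice, and their median differences were 1.68 and 0.94. limma called 0 of the 16 (0 at an unadjusted p under 0.05), and 14 as higher with tied pairs left out. Over all 9451 genes tested without tied pairs, 624 were called higher and 578 lower. Their summed linear level, in log2, was 11.58, 13.41 and 12.55, which is 3.55-fold and 1.96-fold the control. The sum of the 4 pan-leukocyte genes was 3.25-fold and 1.83-fold the control. No macrophage marker was under the reference, and Adgre1, the F4/80 antigen, was 6.29, 7.61 and 7.28. Among 8 neutrophil markers 3 exceeded the control in each mouse, led by S100a8 at 4.52, 7.22 and 5.46, while the granule genes Mpo, Elane, Camp, Ltf and Ngp were under the reference on all 3 arrays. Of 8 dendritic cell markers, 4 were higher in both mice. The part of these cells in the pan-leukocyte difference was not tested. The control also differed from both acetate-fed kidneys in adipocyte genes, 4 of 5 of which were lower in both mice, with Adipoq at 9.98, 4.38 and 3.87. The summed kidney identity genes were 1.02-fold and 0.97-fold the control.

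**Figure D2:**
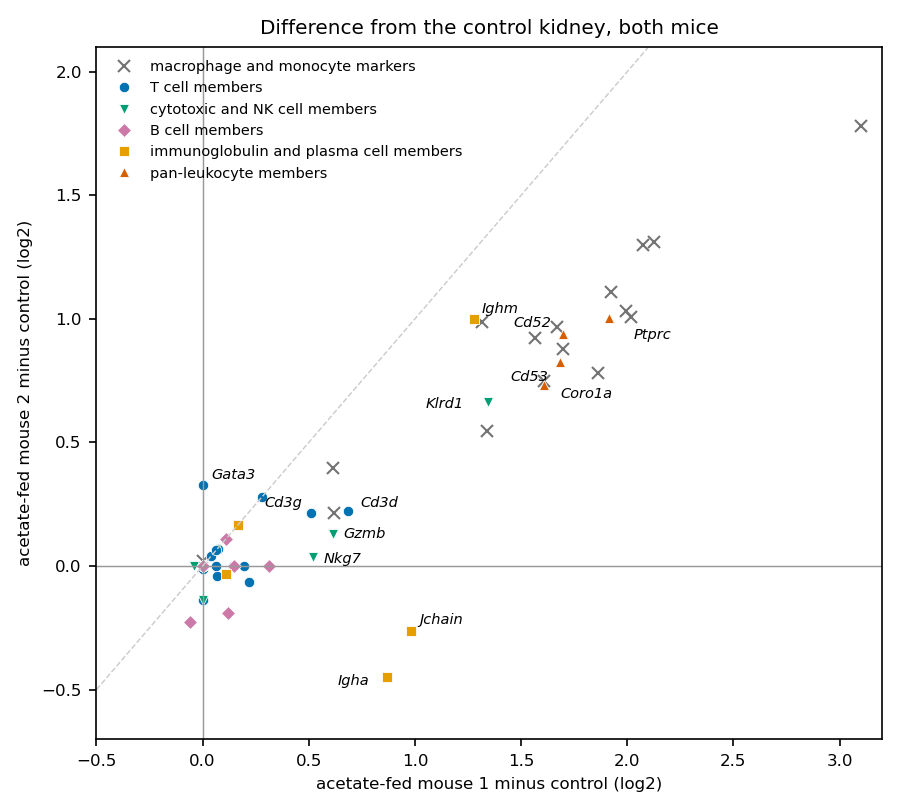
Difference from the control kidney (log2) in acetate-fed mouse 1 (horizontal) and acetate-fed mouse 2 (vertical) for the 39 genes, coloured by role, and for 16 macrophage and monocyte markers (crosses); the dashed line marks equal differences. The 4 pan-leukocyte genes lie among the macrophage markers, between 1.61 and 1.91 in mouse 1, while most T and B cell genes lie near 0, and Igha and Jchain lie below 0 in mouse 2.

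T cell receptor genes did not follow the pan-leukocyte genes as a group. Of the 7 chains and co-receptors, 3 exceeded the control in each mouse, 0 lay below it in each and 1 went opposite ways, with medians of 0.07 and 0.00. Cd3d, a CD3 chain, was 5.82, 6.51 and 6.04, with the acetate-fed mean at 6.28 ± 0.33 (SD, n = 2). Mouse 1 was 1.61-fold and mouse 2 1.17-fold above the control, and the 2 mice were 0.46 apart (limma adjusted p = 0.8, and 0.0959 with tied pairs left out). Cd3e, the chain that anchors the complex, was 6.26, 6.26 and 6.25 and so differed by at most 0.01. Cd3g was under the reference at 3.72, 4.23 and 3.93, in the same order as Cd3d, and is named after its values were seen. Cd247, the zeta chain that carries most of the signalling motifs, lay under the reference by all 4 of its probe sets, at 4.50 on each array by the brightest.

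Cd3d and Cd3g lie head to head, with start sites 1355 bases apart, and their promoter windows are shown for that reason.
Cd3d, chr9:44981536-44981835, plus strand: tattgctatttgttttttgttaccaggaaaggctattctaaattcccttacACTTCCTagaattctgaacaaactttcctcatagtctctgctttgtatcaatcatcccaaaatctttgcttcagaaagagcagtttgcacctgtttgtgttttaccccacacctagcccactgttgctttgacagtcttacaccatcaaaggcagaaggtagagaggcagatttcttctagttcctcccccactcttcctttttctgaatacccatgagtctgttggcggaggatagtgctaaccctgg
Cd3g, chr9:44980382-44980681, minus strand: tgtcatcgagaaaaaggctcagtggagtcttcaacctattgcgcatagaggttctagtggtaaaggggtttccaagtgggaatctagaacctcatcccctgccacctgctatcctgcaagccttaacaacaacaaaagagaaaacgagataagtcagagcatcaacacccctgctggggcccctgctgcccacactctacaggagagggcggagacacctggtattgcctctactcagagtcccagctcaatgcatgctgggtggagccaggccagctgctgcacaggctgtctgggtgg
The Cd3d window holds 1 match to the letters in capitals, beginning 199 bases before the start site, and the Cd3g window none.

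The co-receptors gave small and mixed differences. Cd4, which marks helper T cells and is also made by some myeloid cells, was 5.66, 5.73 and 5.62, higher in mouse 1 and lower in mouse 2. Cd8a, the alpha chain of CD8, was 5.63, 5.70 and 5.70 by its brightest probe set, which rose by 0.07 in limma's test (adjusted p = 0.0175). Its next probe set, at 4.97, 4.91 and 4.91, fell by 0.06 in the same test (adjusted p = 0.0146), and both have tied acetate-fed values. The other 3 Cd8a probe sets were under the reference, so no single direction held for the gene. The beta chain gene Cd8b1 was under the reference on all 3 arrays, at 3.46, 3.46 and 3.32, without the order of Cd3d and Cd3g.

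None of the 6 T cell surface receptors (Cd2, Cd5, Cd6, Cd28, Icos and Ctla4, most of them costimulatory or inhibitory receptors) was above the reference on any array. Their differences ran from 0.00 to 0.22 in mouse 1 and from -0.07 to 0.06 in mouse 2, with 2 higher in both mice. For the signalling proteins, Zap70, the kinase that docks on the phosphorylated zeta chain, was 7.67 on all 3 arrays by its brightest probe set. Its second probe set was 5.49, 5.39 and 5.49, and its dimmest, at 4.93, 5.12 and 5.12, rose by 0.19 (limma adjusted p = 0.00906, a tied pair), so the 3 did not give 1 direction. Lat, the membrane adaptor downstream of Zap70, was 4.99, 5.13 and 4.99, at the edge of the reference.

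Among the transcription factors, Gata3, which directs type 2 helper T cells and is also made by distal nephron and collecting duct epithelium, was 7.52, 7.52 and 7.85. It was equal in the control and mouse 1 and 1.25-fold higher in mouse 2 (limma adjusted p = 0.871), an order unlike that of the pan-leukocyte genes. Foxp3, of regulatory T cells, and Tbx21, of type 1 helper T cells, were under the reference on all 3 arrays. Over the 18 T cell genes with a probe set, 6 were above and 0 below the control in each mouse, 11 were above the reference on no array, and their summed linear level was 1.07-fold the control in both mice. Without Gata3 it was 1.09-fold and 1.02-fold.

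Cytotoxic and NK cell genes were largely at background. Of 6 genes, 3 exceeded the control in each mouse and 0 lay below it in each, with medians of 0.26 and 0.02, and 4 were above the reference on no array. Klrd1 encodes CD94, an NK cell receptor chain. It was 3.34, 4.69 and 4.0, which is 2.54-fold and 1.58-fold above the control, but all 3 values were under the reference and the probe set was not in limma's test. Nkg7, a granule membrane protein of cytotoxic cells, passed the reference on 1 array, at 4.61, 5.13 and 4.64. It was 1.43-fold above the control in mouse 1 and 1.03-fold in mouse 2 (limma adjusted p = 0.871). Prf1, perforin, was 5.07, 5.03 and 5.07 by its brighter probe set, and its other, at 4.53, 4.50 and 4.50, fell by 0.04 (limma adjusted p = 0.0171, a tied pair). Ifng, Gzma and Gzmb were under the reference. Gzmb, a granzyme named after its values were seen, was 3.47, 4.09 and 3.61, again with mouse 1 highest. Gzma, at 4.24 on all 3 arrays, and Ifng, at 2.92, 2.92 and 2.79, did not have that order.

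The B cell genes were mostly at background too. Of 6 genes, 1 lay above and 1 below the control in each mouse, and 5 were above the reference on no array. Cd79b, a signalling chain of the B cell receptor, was the exception at 5.31, 5.46 and 5.31, higher in mouse 1 alone (limma adjusted p = 0.871). Its partner Cd79a, Ms4a1 (CD20), the inhibitory receptor gene Cd22, the B lineage factor Pax5 and the kinase gene Blk were under the reference. The group had medians of 0.11 and 0.00. Over all 21 of the genes above the reference on no array, T, cytotoxic and plasma cell genes included, values ran from 2.45 to 4.76. For 17 of these 21 both differences were at most 0.3 in size, and 10 had a difference of exactly 0 in at least 1 mouse. Values at this level do not show whether a gene was expressed.

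**Figure D3:**
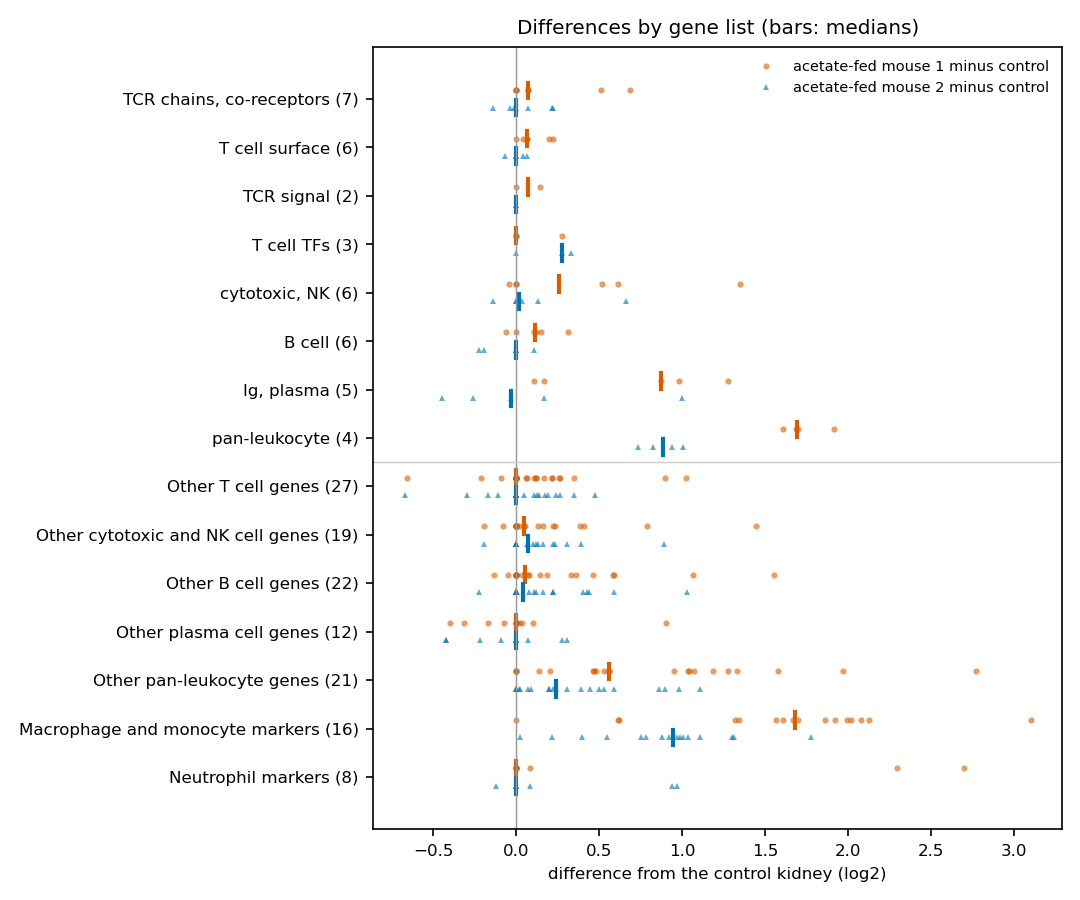
Differences from the control kidney (log2) for each group of genes, with the number of genes in brackets; circles are acetate-fed mouse 1, triangles acetate-fed mouse 2, and vertical bars the medians. Most genes of the pan-leukocyte groups (all 4, and 17 of 21) and of the macrophage and monocyte markers (15 of 16) lie to the right of 0 in both mice, while the medians of the T and B cell groups lie near 0.

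Igha and Jchain lay above the control in 1 acetate-fed mouse and below it in the other, while Ighm and Mzb1 were higher in both. Igha, the heavy chain of IgA, was read by 3 probe sets, which gave 10.40, 11.27 and 9.95, then 10.29, 11.22 and 10.02, and 10.29, 11.14 and 9.91. Each put mouse 1 above and mouse 2 below the control. By the brightest, mouse 1 was 1.83-fold above and mouse 2 1.37-fold below the control, and the 2 mice were 1.32 apart (acetate-fed mean 10.61 ± 0.93, SD, n = 2, limma adjusted p = 1). The 3 probe sets carry suffixes that mark probes shared between transcripts (_a_at and _x_at), and near-identical constant regions may share their signal.

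Jchain, the joining chain of dimeric IgA and pentameric IgM, was 7.22, 8.20 and 6.96. It had the same split as Igha, 1.98-fold above the control in mouse 1 and 1.20-fold below it in mouse 2, with 1.24 between the mice (limma adjusted p = 1). A difference of at least 0.2 upwards in mouse 1 and downwards in mouse 2, a limit set after the values were seen, was found for 0.192% of tested probe sets (52 of 27022). Of the 72 probe sets of the genes here, 4 showed it, the 3 of Igha and that of Jchain.

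Ighm is the heavy chain of IgM. Of its 11 probe sets, 5 were above the reference on all 3 arrays and 6 on none. The probe set with the highest mean was 6.45, 7.72 and 7.45, which is 2.42-fold and 2.00-fold above the control, with the 2 mice 0.28 apart (acetate-fed mean 7.58 ± 0.20, SD, n = 2, limma adjusted p = 0.306, and 4.2e-06 with tied pairs left out). A second, 5.01, 6.81 and 6.42, was 3.49-fold and 2.66-fold above it (limma adjusted p = 0.303, and 7.4e-08 with tied pairs left out), and another was 5.06, 5.89 and 5.60 (adjusted p = 0.457, and 0.00595). A further one, 6.52, 6.77 and 6.60, was higher in both mice by less, and the last above the reference was 5.21 on all 3 arrays. So 4 of these 5 put both acetate-fed mice above the control, by sizes that differed widely. The mean of the tested Ighm probe sets differed by 0.60 where the brightest differed by 1.14, and with suffix-free probe sets alone, the 1 such tested one differed by -0.02.

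Mzb1, an endoplasmic reticulum protein of B and plasma cells that helps to assemble IgM, was 5.64, 5.81 and 5.81. It rose by 0.17 in limma's test (adjusted p = 0.0103), a tied pair. Pou2af1, the B cell coactivator, was under the reference on all 3 arrays. The 5 immunoglobulin and plasma cell genes had medians of 0.87 and -0.03, and their summed linear level was 1.85-fold the control in mouse 1 and 0.82-fold in mouse 2. Without Igha it was 1.95-fold and 1.23-fold.

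**Figure D4:**
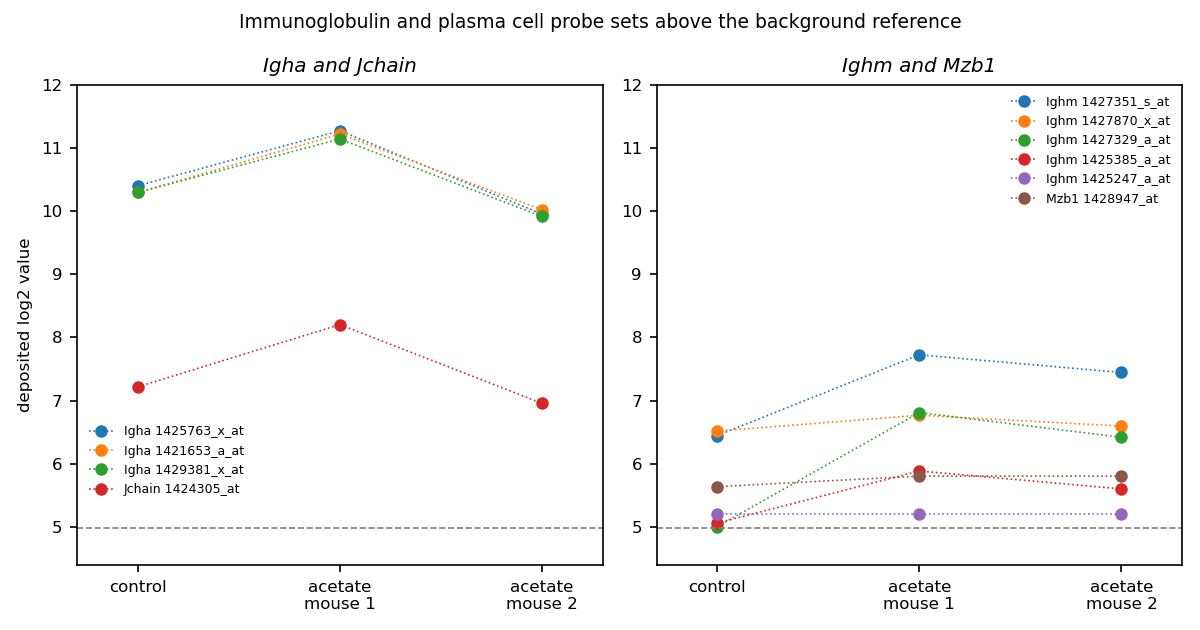
Deposited log2 values of the Igha and Jchain probe sets (left) and of the Ighm probe sets above the background reference with Mzb1 (right) on the 3 arrays; the dashed line is the reference, and dotted lines join the values of 1 probe set and show no order of time. All 4 probe sets on the left put mouse 1 above and mouse 2 below the control, whereas 3 of the 5 Ighm probe sets on the right put both mice above it by 0.54 or more.

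Probe sets of single antigen receptor gene segments, looked at after the values were seen, were mostly dim. Of 29 immunoglobulin segment and constant region probe sets outside the genes above, 8 were above the reference on at least 1 array. On all 3 arrays 6 were above it, where 48.1% of all probe sets were. Of the 29, 12 were higher than the control in mouse 1, and 4 of them lower in mouse 2. The same value on all 3 arrays was found for 8 (30.0% of all probe sets). The kappa segment Igkv8-30 was 7.68, 8.41 and 7.52, with the split of Igha, as had an Igk probe set at 5.73, 5.87 and 5.33. The lambda segment Iglv1 was 5.30, 6.47 and 5.46 by its brightest probe set, higher in both. Igkv9-120, another kappa segment, was 4.70, 6.86 and 5.25 by a probe set above the reference in both acetate-fed mice, also higher in both and so without the split of Igha. Of 17 T cell receptor probe sets, 3 were above the reference, all of the alpha segment Trav9d-3, whose brightest was 6.52, 6.61 and 6.52. Segments resemble each other closely, so which segment a probe set read is uncertain.

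Wider lists of lymphocyte genes were read in the same way, each gene by 1 probe set. Of 27 other T cell genes, 9 exceeded the control in each mouse and 2 lay below it in each, and 9 had the same value on all 3 arrays. limma called 1 of the 15 tested higher, where 3.97% of all tested genes were, and 1 lower, where 4.92% were. The higher one was Ubash3a, a tied pair under the reference. With tied pairs left out 0 were higher and 1 lower, against 624 and 578 of all 9451 genes so tested. Gimap4, a GTPase of lymphocyte survival, was 8.89, 9.23 and 9.13, and the costimulatory receptor gene Tnfrsf4 (OX40) was 6.36, 6.62 and 6.50. Bcl11b, a T cell commitment factor, had the largest difference among the genes of the list above the reference with 1 direction, and was 6.74, 6.08 and 6.06. It fell by 0.66 and 0.67 in the 2 mice (limma adjusted p = 0.03), whose values were only 0.01 apart. A second Bcl11b probe set, at 6.48, 6.04 and 5.78, was also lower in both but did not pass (limma adjusted p = 0.494). Another above the reference, a tied pair, fell by 0.04. Of 19 other cytotoxic and NK cell genes, 8 were above and 1 below the control in each mouse, and limma called 2 of 9 tested genes higher (3.97% of all tested genes) and 0 lower. Both, Klrg1 and Ctsw, were tied pairs. With tied pairs left out 1 of 4 was higher, Serpinb9, and 0 lower, against the same 624 and 578 of 9451. The granzyme B inhibitor gene Serpinb9 was 8.14, 8.93 and 9.03, and the chemokine gene Ccl5 was 6.15, 7.59 and 6.25, higher in mouse 1 by 2.72-fold and in mouse 2 by 1.07-fold. Ctsw, a protease of cytotoxic cells, was 5.30, 5.52 and 5.52 and rose by 0.22 (limma adjusted p = 0.00906, a tied pair).

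Of 22 other B cell genes, 10 were above and 1 below the control in each mouse. limma called 1 of 12 tested genes higher (3.97% of all tested genes) and 0 lower (4.92%). The call was Igll1, a tied pair at 5.49, 5.57 and 5.57. With tied pairs left out 3 of 9 were higher, Cd72, Ly6d and Cd24a, and 0 lower, against 624 and 578 of all 9451 genes. Cd72, an inhibitory receptor of B cells that some myeloid cells also make, was 5.44, 6.99 and 6.46, or 2.94-fold and 2.04-fold above the control, in the order of the pan-leukocyte genes. Ly6d, which marks early B cells and also some epithelia, was 6.60, 7.66 and 7.19, and Cd24a, likewise made by B cells and by epithelia, was 11.12, 11.70 and 11.54. Other plasma cell genes were mixed, with 3 of 12 higher and 4 lower in both and 0 of 8 tested genes called by limma (1 at an unadjusted p under 0.05). With tied pairs left out 1 of 7 was higher, Sdc1, and 0 lower, against the same 624 and 578 of 9451. Sdc1, syndecan-1 of plasma cells and epithelia, was 6.84, 7.74 and 7.11, and the secretory factor gene Xbp1 was 11.47, 11.57 and 11.77, while Eaf2 was lower at 7.91, 7.51 and 7.49.

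Most other pan-leukocyte genes had the order of the 4 described first, with the control lowest and mouse 1 highest at 17 of 21. Of 21, 17 were above and 0 below the control in each mouse, where 22.5% and 27.3% of all genes were. The other 4 (Dock2, Ikzf1, Was and Vav1) were equal to the control in at least 1 mouse. The list had medians of 0.56 and 0.24. limma called 0 of 20 tested genes (2 at an unadjusted p under 0.05). With tied pairs left out it called 10 of 18 higher and 0 lower, against 624 and 578 of all 9451 genes. Cd44, an adhesion receptor of leukocytes and of injured epithelium, was 4.35, 7.12 and 5.21. The integrin chain gene Itgb2 was 5.62, 7.59 and 6.52, and the lysosomal membrane gene Laptm5 was 6.54, 8.12 and 7.53. In each of the 3 the control was lowest and mouse 1 highest.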

How the data were processed

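The measurements are Affymetrix arrays of kidney RNA from 3 mice, 1 array each, grouped by the treatment agent in the labels. The authors deposited log2 values per probe set, already on a near common distribution. The submitters' processing notes name MAS5, and how the log2 values were summarised, with which version, centring and filters, is not given in the sources used here. No scanner files were used, so the number of arrays limits the precision.

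Gene names came from the platform annotation, and all 72 probe sets matched a RefSeq gene by Entrez identifier. Of 45037 probe sets without Affymetrix controls, 34945 had 1 symbol, 932 several and 9160 were not listed. The upper 60% by mean value (27022 probe sets, mean at least 4.21) were tested with limma 3.58.1 in R 4.3.3, by lmFit and eBayes (trend over intensity) with Benjamini-Hochberg adjustment over all of them, at a threshold of 0.05. The fit has 1 residual degree of freedom, that of the 2 acetate-fed mice, whose spread is assumed for the single control as well. It was tested on 5 simulated sets of 27022 probe sets for this comparison, with noise drawn separately for each array and no ties, in which 197 to 199 of 200 probe sets changed by 1 or 2 on the log2 scale were recovered, beside 7 to 13 false calls. The deposited values do hold ties, so this does not bear on the tied calls. Simulated noise also had 1 SD for all probe sets of like brightness, while the real fit's prior gave only 0.36 degrees of freedom. The share recovered therefore does not carry over to untied probe sets either, among which Ptprc differed by 1.46 and did not pass. A gene is read by its probe set with the highest mean, over all probe sets unless tested ones are named. Tables and plots were made in Python 3.11.15 with pandas 2.3.3 and matplotlib 3.10.9. The genes and lists were chosen with earlier results of these data known. Genes were named where a probe set passed the background reference on any array, passed limma or differed 2-fold, and up to 3 per wider list by size among those in the same direction in both mice and above the reference. Of the lists for other cells, mast cell (2 of 6 higher and 2 lower in both mice) and red blood cell markers (1 higher and 1 lower of 3) are given here alone. Alternatives were other filters, normalizations, probe set rules, a pseudocount of 16, background references and leaving out an acetate-fed mouse.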

Additional observations from a re-analysis of the deposited data

How the results depend on the processing

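Of 187 values recomputed, 155 stayed within their limits (1.5 times for a count, 1 SD of the acetate-fed pair for a difference) and 32 moved. For a single gene, leaving out 1 mouse stays within 1 SD of the pair whatever the values, even where the sign changes. Such values therefore say nothing about stability. Without the settings that left out a mouse, 120 of 147 values stayed. Some differences changed sign, among them that of Ighm, which passed limma with tied pairs left out. With mouse 1 left out, Igha went from 0.21 to -0.45, Jchain from 0.36 to -0.26 and the median of the immunoglobulin and plasma cell genes from 0.29 to -0.05. With suffix-free probe sets Ighm went from 1.14 to -0.02, read by a probe set under the background reference. limma's count of 5 probe sets became 12 with no filter (6.97% of all probe sets were then called higher and 7.51% lower), 8 with tied pairs left out, and 0 in the upper 40%, after quantile normalization or after median centring, where 0, 3 and 7 probe sets had an unadjusted p under 0.05. In those 3 settings 0 of all probe sets passed. No other test was run. Of the 23 tested genes, 9 were above and 1 below the control in each mouse. The first became 16 with no filter and 10 to 15 with 1 mouse left out. The second became 0 in the upper 40%, 6 after quantile normalization, 7 after median centring, 2 with suffix-free probe sets or the mean of probe sets, and 2 to 5 with 1 mouse left out. The cause was not tested. The count at least 2-fold higher in both mice was 1, Ptprc at 1.0038 in mouse 2. It was 0 after quantile normalization, after median centring, with suffix-free probe sets and with the pseudocount, 5 at 1.5-fold, and 1 to 5 with 1 mouse left out.

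The medians of the tested genes, averaged over both mice, were 0.0151 for T cell receptor chains and co-receptors (0.22 in the upper 40%, -0.0146 and -0.0082 after quantile normalization and median centring, and 0.0000 to 0.0688 with 1 mouse left out) and 0.00 for cytotoxic and NK cell genes (0.14 with no filter, -0.0199 after quantile normalization, -0.0233 after median centring and 0.28 with suffix-free probe sets). For B cell genes the median of 0.00 became 0.0374 with no filter or suffix-free probe sets, and -0.0256 and -0.0233 after quantile normalization and median centring. The pan-leukocyte median of 1.29 ran from 1.17 to 1.29 over the other settings and from 0.88 to 1.69 with 1 mouse left out. With mouse 1 left out Coro1a went from 1.17 to 0.73 and Cd53 from 1.26 to 0.82. Its value with suffix-free probe sets rests on Cd52 and Cd53, since Ptprc and Coro1a had no tested one. The count of genes above the background reference on all 3 arrays, 16, ran from 11 to 17. Igha had no suffix-free probe set. No paired analysis was made, since there is a single control array and the labels link neither acetate-fed mouse to it.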
